A study of Mus musculus with 24 samples.

Results

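BURP-18BaSq, a transplantable mouse bladder tumor line of the basal/squamous (Ba/Sq) subtype, was compared with the other Ba/Sq lines of the same collection over all genes. The members were the 3 BURP-18BaSq tumors of the 24 tumors sequenced (C148-M3, C149-M3 and P4, as the labels name them), chosen by the line number in the sample labels, and they were set against 15 tumors of 5 lines. The lines began in C57BL/6NTac mice given 0.1% N-butyl-N-(4-hydroxybutyl)-nitrosamine (BBN), a bladder carcinogen, in drinking water from 8 weeks of age for up to 36 weeks. Bladder tumors from these donor mice were implanted under the skin of syngeneic hosts of the same sex and carried on by passage. The reference lines were the male BURP-12BaSq and BURP-17BaSq and the female BURP-25BaSq, BURP-24BaSq and BURP-21BaSq, with 3 tumors each, while BURP-18BaSq is itself male. Each line descends from 1 donor tumor and grows in skin rather than bladder, and every sample holds stroma and blood cells of the host beside the tumor cells.

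The Ba/Sq subtype of bladder cancer resembles the basal layer of the urothelium and stratified squamous epithelium, and its cells make basal keratins and the transcription factor p63. Tumor lines of one subtype can still differ in the developmental transcription factors they express, in the antigen presentation machinery that displays peptides to T cells, and in adhesion molecules. The p-values given here treat each tumor as independent, although the 3 tumors of a line share a donor. The spread behind these p-values mixes differences among tumors of a line with differences among the reference lines. BURP-18BaSq is 1 line against 5. In bulk RNA, fewer cells of a type and less RNA per cell cannot be told apart.

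Total counts ran from 9295708 to 25370320 over the 18 Ba/Sq tumors. Levels are given as CPM, counts relative to the scaled total of the library, after edgeR's TMM scaling, and a count of 3, taken as the smallest level a library could show, was worth 0.409 CPM in C148-M3, 0.255 CPM in C149-M3 and 0.159 CPM in P4, values that cover counting error only. Tumor C102-M1, labelled BURP-25BaSq, correlated with the BURP-21BaSq tumors with r = 0.959 to 0.975 and with the other BURP-25BaSq tumors with r = 0.866 and 0.877 over 16728 genes, and C102-M30 was rich in ribosomal RNA, with a TMM factor of 0.263. Without both, 1181 genes were higher and 832 lower in BURP-18BaSq. Host RNA differed among the 3 tumors. The summed level of 23 fibroblast markers was 836 CPM in C148-M3, 1010 CPM in C149-M3 and 8429 CPM in P4, within the range of the others (372 to 13520 CPM). The 15 macrophage markers summed to 136, 38.95 and 780 CPM, with 120 to 1106 CPM in the others, so that C149-M3 lay below all of them.

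The markers of the subtype were present in all 3 tumors. Krt5, a basal keratin, stood at 3399, 5311 and 3335 CPM in C148-M3, C149-M3 and P4 and at 2908 to 5953 CPM in the others, with a log2 difference of -0.03 ± 0.23 (SE). Trp63, which encodes p63, stood at 571, 413 and 261 CPM against 176 to 866 CPM, a log2 difference of 0.11 ± 0.32 (SE), and the sign of both differences turned under some alternatives. Neither gene passed the test (adjusted p = 0.942 and 0.853, edgeR), and neither did the luminal factors Foxa1 and Gata3, Vim or Syp. The groups overlapped for all 6 genes, and Syp, a neuroendocrine marker, reached at most 1.09 CPM.

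Of 20523 genes tested with edgeR's quasi-likelihood test, 2065 (10.1%) differed more than 2-fold at a false discovery rate of 0.05. In BURP-18BaSq 1226 genes were higher (5.97%) and 839 lower (4.09%). These 2 shares are the ones to set beside each count on a gene list below. For 890 genes all 3 tumors lay above all 15 others (4.34%) and for 764 all 3 lay below (3.72%), 8.06% in either direction. Both conditions held for 633 higher genes (3.08%) and 411 lower genes (2%), and the median log2 fold change of all genes was -0.09. The count rested in large part on C148-M3: without it 703 genes passed, without C149-M3 1367, and without P4 2355. C148-M3 had 10012169 counts and a TMM factor of 0.734, with 0.869 in C149-M3 and 1.113 in P4. Apart from C102-M30 the other Ba/Sq tumors had factors of 1.013 to 1.276, and the part of this in the calls was not tested. With the line as a random effect in limma-voom 345 genes passed, 317 of them higher and 28 lower, and with counts summed per line 26 passed, 22 of them higher. The genes named first in each direction are the 15 coding genes with the largest change among those past the threshold whose groups did not overlap and whose mean reached 5 CPM in a group.

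**Figure D1:**
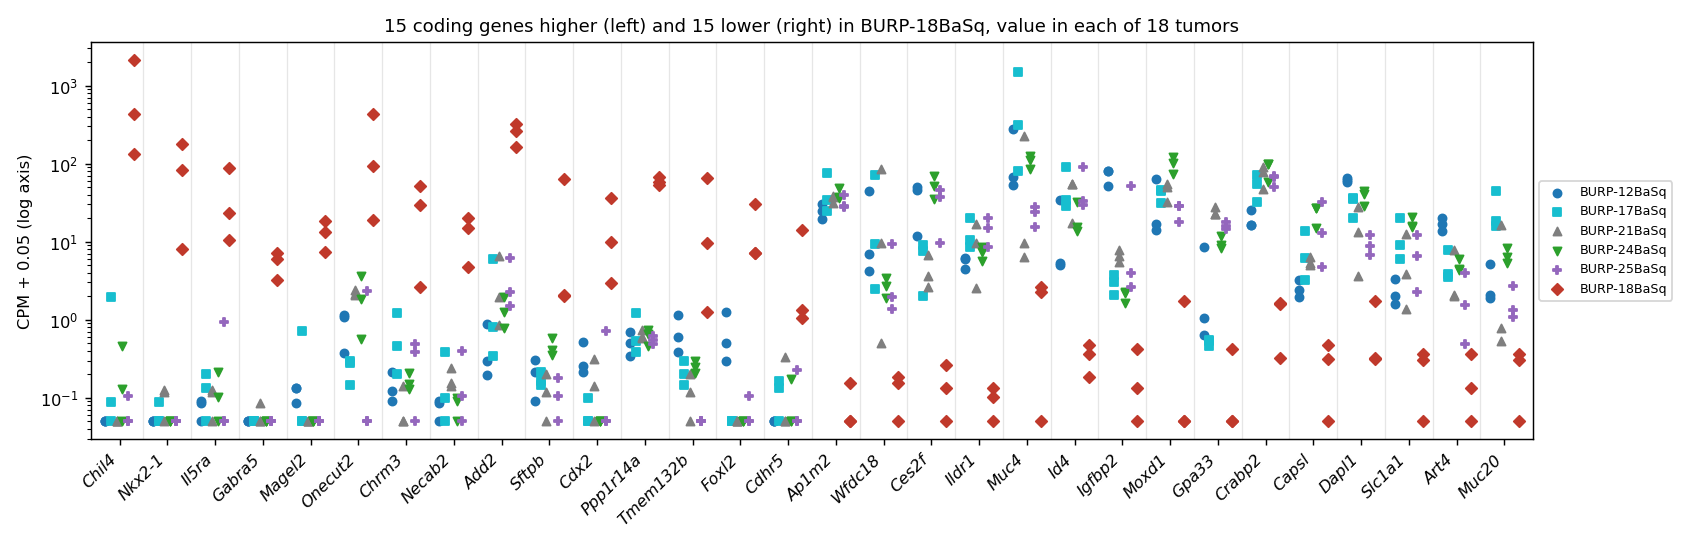
Level of 30 coding genes in each of the 18 Ba/Sq tumors, as CPM plus 0.05 on a log axis, with 1 point per tumor and 1 marker shape and color per line (red diamonds, BURP-18BaSq). For the 15 genes at the left all 3 BURP-18BaSq tumors lie above the other 15 tumors, and for the 15 at the right all 3 lie below, which is how the genes were chosen.

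Among the 15 genes with the largest rise, 4 were developmental transcription factors of other organs, Nkx2-1, Cdx2, Onecut2 and Foxl2. Nkx2-1, the lung and thyroid factor, stood at 179 CPM in C148-M3, 83.1 CPM in C149-M3 and 8.09 CPM in P4, whereas the other 15 tumors reached at most 0.0761 CPM, and 5 counts in all. The log2 fold change was 11.97 ± 0.61 (SE, adjusted p = 3.42e-10, edgeR). Sftpb, which encodes surfactant protein B and is a target of Nkx2-1 in lung, stood at 63.5, 2.04 and 1.96 CPM against at most 0.529 CPM, a log2 fold change of 6.95 ± 0.68 (SE, adjusted p = 2.55e-06, edgeR). All 3 tumors lay above the others for both genes, as the choice of the 15 genes required. C148-M3 held most of the Sftpb RNA, and the Sftpb call was lost with DESeq2 and with the line as a random effect.

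Cdx2, the intestinal homeobox factor, stood at 35.9, 9.93 and 2.91 CPM and reached at most 0.663 CPM in the others. Onecut2, a hepatic and neural factor, stood at 438, 92.6 and 19.15 CPM against 0 to 3.62 CPM, and Foxl2, an ovarian factor, at 30.3, 7.13 and 7.19 CPM against 0 to 1.2 CPM. Their log2 fold changes were 6.82 ± 0.86, 7.21 ± 0.75 and 6.57 ± 1.01 (SE, adjusted p = 3.82e-05, 5.04e-06 and 0.000268, edgeR), and the Foxl2 call was lost with DESeq2. The order of the 3 tumors was the same for Nkx2-1, Cdx2 and Onecut2, with C148-M3 highest and P4 lowest. Foxa2, a factor of endoderm, was more even at 6.27, 4.41 and 6.98 CPM against a median of 0 and a highest value of 2.04 CPM (log2 fold change 4.22 ± 1.02, SE, adjusted p = 0.00938, edgeR), and its call was lost without C148-M3 and against the male lines alone.

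In the 6 tumors of the series outside the Ba/Sq subtype, scaled together with the Ba/Sq tumors, Nkx2-1, Cdx2, Chil4 and Gabra5 had no count. Foxa2 and Onecut2 did: Foxa2 ran from 3.64 to 62.0 CPM in those tumors and Onecut2 from 0.0454 to 64.6 CPM. Of 61 tested genes on the list of Sox and lineage transcription factors, 9 were higher and 6 lower in BURP-18BaSq, and the median log2 fold change was -0.24 against -0.09 for all genes. Sox5 rose (log2 fold change 3.55 ± 0.62, SE, adjusted p = 0.000892, edgeR), although P4 at 30.1 CPM lay within the range of the others, whose highest value was 33.7 CPM. Without C148-M3 4 members were higher and 1 lower.

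The largest rise among these 15 genes was that of Chil4, a chitinase-like protein of type 2 inflammation, at 2097 CPM in C148-M3, 436 CPM in C149-M3 and 133 CPM in P4. It reached at most 1.9 CPM elsewhere in the subtype, and its log2 fold change was 12.70 ± 0.95 (SE, adjusted p = 8.19e-08, edgeR). Its near-identical neighbor Chil3 had a log2 fold change of 3.31, lost without C148-M3, and reads shared by such copies may be divided between them by the counting. Il5ra, the interleukin-5 receptor subunit, stood at 87.2, 10.5 and 23.4 CPM against at most 0.885 CPM (log2 fold change 9.25 ± 0.65, SE, adjusted p = 3.4e-08, edgeR).

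Genes of neurons and of the membrane skeleton were also among the 15. Ppp1r14a, an inhibitor of myosin phosphatase, was the steadiest, at 66.7, 53.6 and 58.0 CPM against 0.292 to 1.17 CPM (log2 fold change 6.69 ± 0.23, SE, adjusted p = 5.18e-13, edgeR). Add2, the beta subunit of adducin, stood at 258, 166 and 319 CPM against 0.145 to 6.49 CPM (log2 fold change 7.01 ± 0.66, SE, adjusted p = 1.76e-06, edgeR). For these genes P4 was not the lowest or lay close to the rest, unlike Nkx2-1. In the lines outside the subtype, scaled together with the Ba/Sq tumors, Ppp1r14a ran from 33.0 to 50.1 CPM. Add2 ran from 156 to 170 CPM in the stroma-rich line BURP-16SR and from 1.82 to 2.95 CPM in the NE-like line BURP-19NE. Gabra5, a GABA-A receptor subunit, had 1 count in all 15 other tumors and 3.14 to 7.09 CPM in BURP-18BaSq, a ratio of 1740 with a 95% counting interval from 309 to 69100.

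Magel2 of the imprinted Prader-Willi region stood at 13.1, 18.2 and 7.3 CPM against at most 0.662 CPM (log2 fold change 7.91 ± 0.83, SE, adjusted p = 5.04e-06, edgeR), and its neighbor Ndn at 3.95, 13.5 and 16.6 CPM against at most 7.0 CPM (log2 fold change 3.53 ± 0.84, SE, adjusted p = 0.00827, edgeR). C148-M3 overlapped the others for Ndn. Outside the subtype Magel2 ran from 69.6 to 147 CPM in BURP-19NE and from 0.424 to 1.26 CPM in BURP-16SR. Of 31 tested imprinted and oncofetal genes 5 were higher, Ndn, Dlk1 and Hmga1 among them, and 1 was lower, with a median log2 fold change of 0.13. The lower gene, Kcnq1ot1, an imprinted antisense RNA, stood at 12.95, 16.3 and 196 CPM against 150 to 748 CPM. Only P4 overlapped the others, and the call was lost without C148-M3, without C149-M3 and against the male lines. The remaining genes of the 15, Chrm3, Necab2, Tmem132b and Cdhr5, had log2 fold changes of 6.36 to 7.12. All 15 passed without each BURP-18BaSq tumor in turn and against the male lines alone, 13 passed with the line as a random effect (all but Sftpb and Tmem132b), 12 with DESeq2 (all but Sftpb, Foxl2 and Cdhr5) and 8 with counts summed per line.

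Genes of MHC class I presentation fell together. Class I molecules carry peptides cut by the immunoproteasome and moved into the endoplasmic reticulum by the TAP transporter, and beta-2 microglobulin is their common light chain. Of 19 tested genes 12 were lower and none was higher, with a median log2 fold change of -1.39 against -0.09 for all genes. For 10 genes all 3 tumors lay below the other 15, as they did for 3.72% of all genes. The class I promoters of mouse carry well known elements, an interferon response element and a kappa B element, and the stretches before the start of 3 genes that fell are shown with them, from RefSeq on GRCm38.p6, 5′ to 3′. They are shown because the promoters of H2-K1 and H2-Q7 share both motifs while that of B2m has another spacing. The promoters of H2-T22 and H2-T23 have the spacing of B2m. Capitals mark GAAANNGAA in B2m and GAANNGAAA and GGGATTCCC in the H2 genes, each searched on both strands.
B2m promoter, chr2:122147437-122147685, plus strand: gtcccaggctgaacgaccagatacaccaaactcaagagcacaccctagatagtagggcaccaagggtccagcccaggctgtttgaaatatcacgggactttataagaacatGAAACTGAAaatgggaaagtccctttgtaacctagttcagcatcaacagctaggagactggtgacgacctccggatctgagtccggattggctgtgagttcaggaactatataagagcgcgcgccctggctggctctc
H2-K1 promoter, chr17:34000348-34000597, minus strand: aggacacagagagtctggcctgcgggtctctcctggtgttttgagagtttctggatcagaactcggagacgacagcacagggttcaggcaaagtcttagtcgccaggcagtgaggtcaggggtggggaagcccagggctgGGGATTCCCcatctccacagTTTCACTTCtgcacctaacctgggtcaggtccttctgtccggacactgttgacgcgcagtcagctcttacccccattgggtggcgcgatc
H2-Q7 promoter, chr17:35438905-35439154, plus strand: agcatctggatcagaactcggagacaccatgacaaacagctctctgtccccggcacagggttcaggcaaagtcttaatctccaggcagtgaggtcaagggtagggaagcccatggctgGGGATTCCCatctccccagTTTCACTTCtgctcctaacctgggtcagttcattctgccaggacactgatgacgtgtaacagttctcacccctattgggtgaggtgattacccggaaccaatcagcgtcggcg

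All 12 genes that fell had a promoter in the RefSeq table. In the 250 bases before the start GAAANNGAA was present in 4 of the 12 (33.3%; B2m, Erap1, H2-T22 and H2-T23) and in 8.18% of the 27025 genes of the table. GAANNGAAA was present in 5 (41.7%; H2-D1, H2-K1, H2-Q4, H2-Q6 and H2-Q7) and in 7.3%, and GGGATTCCC in 4 of these, all but H2-Q4 (33.3%), and in 0.352%. Of the 7 list genes that did not pass, 5 had a promoter in the table, and the 3 motifs were present in 0, 1 (H2-M3) and 1 (Irf1) of them. The first 2 motifs can overlap in their letters. The letters were chosen after these promoters had been read, the H2 genes are related copies, and a match is a description of the sequence only.

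B2m, the light chain, stood at 72.2 CPM in C148-M3, 17.7 CPM in C149-M3 and 147 CPM in P4, and at 573 to 1220 CPM with a median of 804 CPM in the others. The highest BURP-18BaSq tumor was thus below the lowest of the 15, and the log2 fold change was -3.36 ± 0.47 (SE, adjusted p = 0.000104, edgeR). The heavy chain H2-K1 stood at 143, 60.6 and 174 CPM against 395 to 1060 CPM (log2 fold change -2.60 ± 0.31, SE, adjusted p = 2.02e-05, edgeR), and H2-D1 at 297, 162 and 278 CPM against 551 to 1066 CPM (log2 fold change -1.62 ± 0.24, SE, adjusted p = 0.000176, edgeR). The groups did not overlap for either chain, and C149-M3 was lowest for both, as for B2m.

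The nonclassical genes H2-Q7, H2-Q6 and H2-Q4 had the lowest fold changes of the list together with B2m. H2-Q7 stood at 11.4, 3.56 and 33.9 CPM against 69.8 to 519 CPM, a log2 fold change of -4.42 ± 0.63 (SE, adjusted p = 0.000126, edgeR). H2-Q6 and H2-Q7 are near-identical copies whose reads may have been divided between them. H2-T22 and H2-T23 fell less, with log2 fold changes of -1.35 and -1.39, and overlapped the other tumors.

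Among the processing genes, Psmb9 and Psmb8, subunits of the immunoproteasome, had log2 fold changes of -2.38 ± 0.44 and -2.12 ± 0.49 (SE, adjusted p = 0.00144 and 0.0064, edgeR). Tap1 stood at 93.8, 16.97 and 59.7 CPM against 102.4 to 289 CPM (log2 fold change -1.69 ± 0.42, SE, adjusted p = 0.0115, edgeR), and Erap1, which trims peptides, had a log2 fold change of -1.19. Tap2 stood at 60.2, 10.3 and 26.0 CPM against 37.4 to 97.1 CPM and did not pass (adjusted p = 0.114, edgeR). The class I transactivator Nlrc5 stood at 318, 99.7 and 71.4 CPM against 68.7 to 254 CPM, and Irf1 at 105, 38.6 and 84.5 CPM against 50.2 to 152.2 CPM, with adjusted p = 0.68 and 0.368 (edgeR). Tapbp, Psmb10, Calr and H2-M3 did not pass either.

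**Figure D2:**
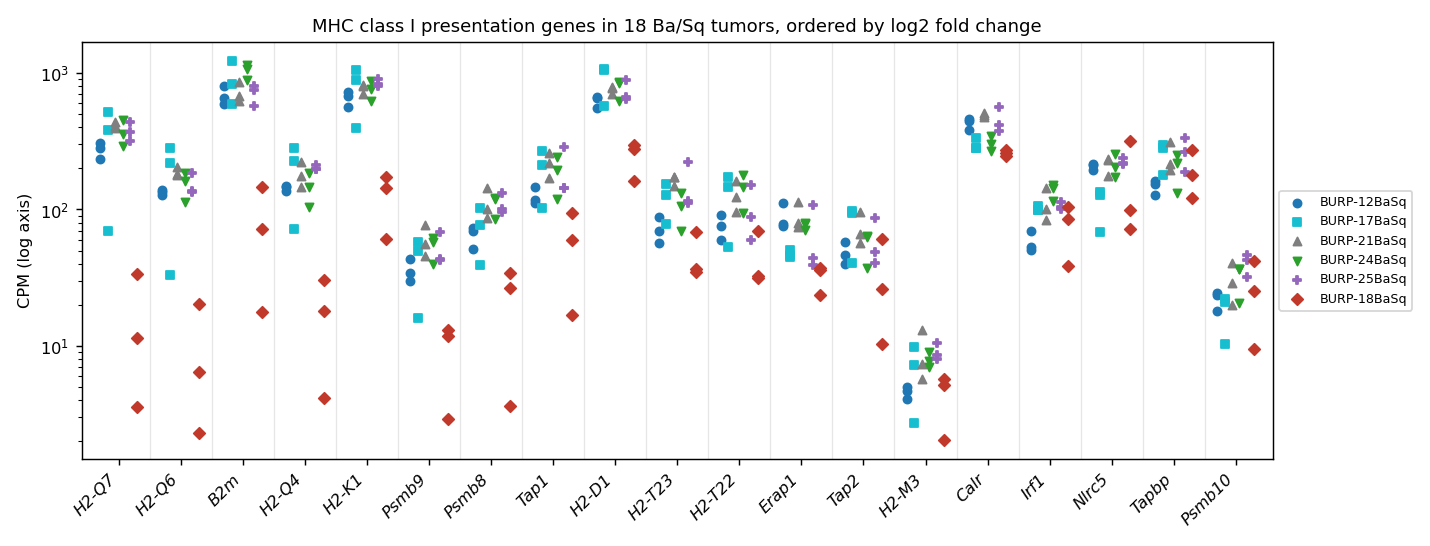
Level of 19 MHC class I presentation genes in each of the 18 Ba/Sq tumors, in CPM on a log axis, ordered from the lowest to the highest log2 fold change, with 1 point per tumor and 1 marker shape and color per line. From H2-Q7 to H2-D1 all 3 BURP-18BaSq tumors (red diamonds) lie below the other 15, while Nlrc5, Tapbp and Psmb10 overlap.

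The summed level of the 19 genes was 1938 CPM in C148-M3, 894 CPM in C149-M3 and 1539 CPM in P4, below the 2752 to 6228 CPM of the other 15. All 10 MHC class II genes, which mark host antigen-presenting cells, missed the threshold, and their sum was 56.3, 29.7 and 718 CPM against 56.2 to 1325 CPM. The class II and macrophage sums of P4 and of C148-M3 lay inside the ranges of the others, those of C148-M3 near the lower end. The class I sum was lower in P4 than in C148-M3. B2m, H2-K1 and H2-Q7 were higher in P4 than in C148-M3, while H2-D1, Tap1 and Nlrc5 were lower. The part of host content was not tested. Without P4 7 class II genes were lower, beside 4.84% of all genes. The lowest class I sum outside BURP-18BaSq belonged to C165-M30 of BURP-17BaSq, with a class II sum of 56.2 CPM. Leaving out C148-M3, C149-M3 or P4 gave 12, 8 and 10 lower genes on the class I list, the male lines alone 7, the line as a random effect 5 (B2m, H2-K1, H2-D1, H2-Q4 and H2-Q7) and counts summed per line 2 (H2-Q6 and H2-Q7). In the 6 tumors of other subtypes B2m ran from 140 to 546 CPM and H2-K1 from 61.6 to 393 CPM, so that low class I RNA was not limited to BURP-18BaSq in the series.

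**Figure D3:**
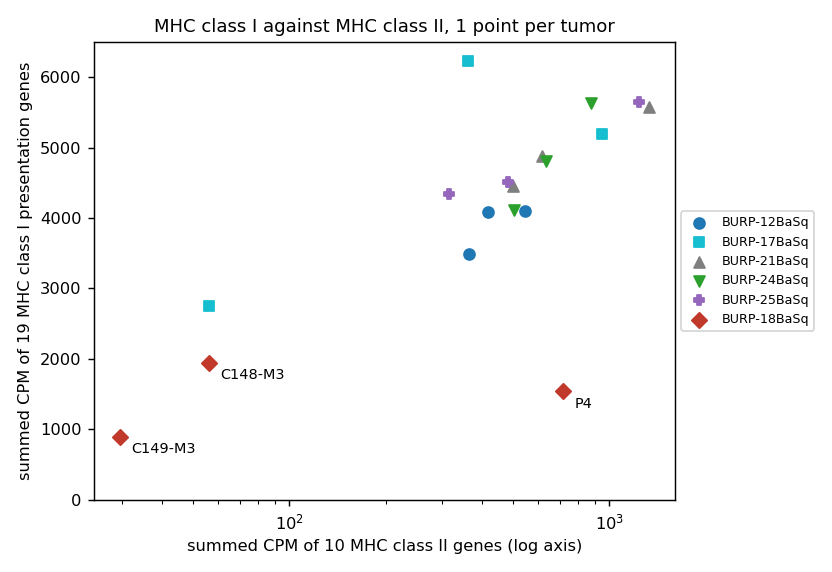
Summed level of 19 MHC class I presentation genes in CPM (vertical axis) against that of 10 MHC class II genes in CPM on a log axis (horizontal axis), with 1 point per Ba/Sq tumor. The 3 BURP-18BaSq tumors (red diamonds) sit at 894 to 1938 CPM of class I, below the other 15 tumors at 2752 to 6228 CPM. The class II levels of P4 and C148-M3 lie within the range of the others, that of C148-M3 at its lower end.

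Genes of the type I interferon response were lower in part. Of 30 tested genes 6 were lower (Ifi44, Dhx58, Ifi27, Rtp4 and Ifih1 among them) and none was higher, with a median log2 fold change of -1.22. Ifi44 stood at 4.09, 0.849 and 4.5 CPM against 4.68 to 61.0 CPM without overlap (log2 fold change -3.50 ± 0.80, SE, adjusted p = 0.00637, edgeR). The list's sum did overlap, with C148-M3 at 1253 CPM inside the range of 768 to 2638 CPM and C149-M3 at 297 CPM and P4 at 566 CPM below it. Without C148-M3, C149-M3 or P4 7, 4 and 5 genes of the list were lower, with the male lines alone 4, and none passed with the line as a random effect.

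Hox genes, which set position along the body axis and lie in 4 clusters, were higher in part, mainly those of the Hoxb cluster. Of 37 tested genes on the list 11 were higher and none was lower, with a median log2 fold change of 0.62. For 12 genes all 3 tumors lay above the other 15, as they did for 4.34% of all genes. The summed level was 638, 687 and 501 CPM against 202 to 333 CPM, without overlap. Hoxb8 stood at 66.7, 64.7 and 48.1 CPM against 1.99 to 7.36 CPM, a log2 fold change of 3.91 ± 0.27 (SE, adjusted p = 2.73e-08, edgeR). Hoxb5 stood at 61.1, 86.3 and 39.1 CPM against 4.94 to 17.5 CPM and Hoxb6 at 80.3, 86.3 and 52.8 CPM against 6.58 to 24.7 CPM, with log2 fold changes of 2.44 ± 0.28 and 2.31 ± 0.27 (SE, adjusted p = 1.36e-05 for both, edgeR). The 3 tumors were alike in Hoxb8, which differed from the genes led by C148-M3.

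Hoxb3, Hoxb4 and Hoxb7 rose by 1.93, 2.12 and 1.46 on the log2 scale, each without overlap. At the ends of the stretch, Hoxb2 had a log2 fold change of 1.04 and Hoxb9 of 0.31, and neither passed (adjusted p = 0.065 and 0.814, edgeR). Hoxb13, which lies apart from the rest of the cluster, rose by 1.54. From Hoxb8 to Hoxb3 with Hoxb5os and Gm11536, 8 neighboring tested genes on chromosome 11 from 96281905 to 96347930 (GRCm38) were called higher, all 8 without overlap, and 3 of the 8 lie inside another member's span on the opposite strand. The strand setting of the counting is not given in the sources used here, so reads of these 3 and of the genes around them may be shared. From the other clusters Hoxa5, Hoxa6, Hoxa10 and Hoxc13 rose, and no Hoxd gene did. Hoxc13 was at 3.39 CPM in C149-M3 and at most 0.873 CPM in the other 17 Ba/Sq tumors, and its call was lost without C149-M3 and with DESeq2. Leaving out C148-M3, C149-M3 or P4 left 7, 9 and 11 Hox genes higher, the male lines alone 8, and the line as a random effect 6. Outside the subtype Hoxb8 ran from 54.1 to 66.2 CPM in BURP-19NE, near the levels of BURP-18BaSq, and from 5.5 to 8.65 CPM in BURP-16SR. Hoxb6 in BURP-19NE, at 55.3 to 75.2 CPM, was also near BURP-18BaSq. Hoxb5 in BURP-19NE, at 21.6 to 31.9 CPM, lay below it.

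**Figure D4:**
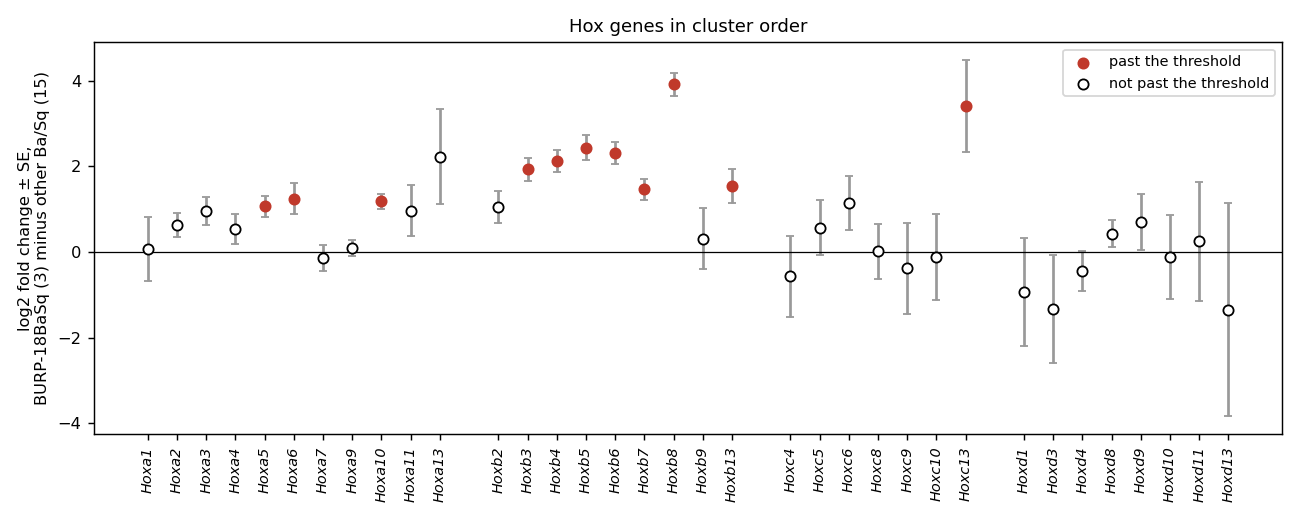
Log2 fold change of each tested Hox gene in order within its cluster, BURP-18BaSq (3 tumors) minus the other Ba/Sq lines (15 tumors), with SE bars, filled where the gene passed the threshold. The genes from Hoxb3 to Hoxb8 lie between 1.46 and 3.91, and the Hoxd genes lie between -1.35 and 0.70.

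Among the 15 genes with the largest falls were genes of polarized epithelium, mucins and regulators of differentiation. Ap1m2, the epithelial subunit of the AP-1 sorting adaptor, was the most nearly lost, with 2 counts in the 3 tumors together and 19.6 to 74.8 CPM in the others, a ratio of 648 with a 95% counting interval from 179 to 5350. Its adjusted p was 3.2e-08 (edgeR), and its call held under every alternative in which it could be tested. Ildr1, a protein of tricellular junctions, had 2 counts in BURP-18BaSq and 2.51 to 20.2 CPM in the other Ba/Sq tumors, a ratio of 175 with an interval from 48.3 to 1440. In BURP-16SR and BURP-19NE, scaled together with the Ba/Sq tumors, Ap1m2 and Ildr1 each reached at most 0.339 CPM. Their low levels were thus not limited to BURP-18BaSq in the series. Moxd1 and Igfbp2, also among the 15, reached 53.4 and 3.95 CPM in BURP-16SR.

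Id4, an inhibitor of differentiation factors, stood at 0.136, 0.424 and 0.317 CPM against 4.94 to 91.4 CPM (log2 fold change -6.83 ± 1.10, SE, adjusted p = 0.000404, edgeR). Crabp2, which carries retinoic acid to the nucleus, stood at 0.273, 1.61 and 1.53 CPM against 16.5 to 98.2 CPM (log2 fold change -5.59 ± 0.72, SE, adjusted p = 4.67e-05, edgeR). For both genes all 3 tumors were below every other Ba/Sq tumor. The membrane mucin Muc4 stood at 0, 2.21 and 2.54 CPM against 6.28 to 1506 CPM, the widest range among the others, and Muc20, Gpa33, Igfbp2 and Wfdc18 were likewise variable there.

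Muc4, Muc20, Gpa33, Igfbp2 and Wfdc18 lost their calls without C148-M3 and without C149-M3, and 10 of the 15 passed in each case. Only Ap1m2 of the 15 passed with the line as a random effect, and only Ap1m2 with counts summed per line. The rest of the 15 were Ces2f, Moxd1, Capsl, Dapl1, Slc1a1 and Art4, with log2 fold changes of -7.63 to -5.29. Klf15, a Kruppel-like factor, had no count in the 3 tumors and 0.0827 to 4.07 CPM in the others, at least 5.96-fold lower.

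Trp53 and Notch1, both often altered in bladder cancer, were lower in all 3 tumors. Trp53, the p53 gene, stood at 34.6, 37.2 and 40.5 CPM against 54.0 to 182 CPM with a median of 104 CPM (log2 fold change -1.54 ± 0.32, SE, adjusted p = 0.00306, edgeR). Of 24 tested genes on the p53 list, which holds Trp53 itself, 2 were lower, Trp53 and the DNA repair gene Ddb2, and none was higher, with a median log2 fold change of -0.07. Notch1 stood at 46.6, 119 and 73.2 CPM against 150 to 367 CPM (log2 fold change -1.42 ± 0.28, SE, adjusted p = 0.00216, edgeR), and of 20 tested Notch pathway genes 1 was higher, the ligand Dll1, and 1 lower. Over all genes 5.97% were higher and 4.09% lower, so neither list is set apart by its count of calls. The calls of Trp53, Ddb2, Notch1 and Dll1 were lost with the line as a random effect.

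Integrins and laminins of the basement membrane contact moved in both directions. Of 28 tested genes 5 were higher (Itga2, Itga3, Itga6, Itgb4 and Lamb3) and 2 lower (Itgb6 and Itgb8), beside 5.97% and 4.09% of all genes. The median log2 fold change of the list was 0.28. Itga3, a laminin receptor subunit, stood at 722, 529 and 775 CPM against 143 to 413 CPM (log2 fold change 1.46 ± 0.28, SE, adjusted p = 0.00177, edgeR), and Itga2, a collagen receptor subunit, at 400, 258 and 259 CPM against 12.1 to 147 CPM (log2 fold change 2.36 ± 0.51, SE, adjusted p = 0.00442, edgeR). Itgb6, the partner in an activator of latent TGF-beta, stood at 0.818, 4.16 and 4.81 CPM against 9.48 to 73.02 CPM (log2 fold change -3.45 ± 0.75, SE, adjusted p = 0.0047, edgeR). The groups did not overlap for these 3 genes, and they did for Itga6, Itgb4, Lamb3 and Itgb8. Without C148-M3 2 members were higher and 1 lower, and the call of Itga2 was lost. Itga6, Itgb4 and Lamb3, parts of the hemidesmosome and its ligand, are also on the list of basal keratins and basal layer genes, where 4 of 20 were higher (Bnc1 the fourth) and none was lower, with a median log2 fold change of 0.11. No member of either list passed with the line as a random effect or with counts summed per line.

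Clade B serpins, a family of protease inhibitors, fell in part. Of 13 tested 5 were lower and none was higher, with a median log2 fold change of -2.39. Serpinb5 (maspin) stood at 15.7, 54.1 and 62.5 CPM against 80.5 to 156 CPM (log2 fold change -1.43 ± 0.30, SE, adjusted p = 0.00373, edgeR). Serpinb10 and Serpinb8 had log2 fold changes of -3.32 and -2.39. The summed level of the list was 104, 187 and 244 CPM in the 3 tumors, below the 272 to 879 CPM of the other 15, although without C148-M3 2 members were called, without C149-M3 3 and against the male lines 2. None passed with the line as a random effect or with counts summed per line. DESeq2 called 10 members lower, where it called 1300 of all 20523 genes lower. Serpinb1b and Serpinb6b, the other called members, stood at 2.65 CPM or less in the 3 tumors. Of 61 tested genes of squamous differentiation and the cornified envelope, 2 were higher and 1 lower, with a median log2 fold change of -1.60, and their sum was 6023, 10760 and 1382 CPM against 2999 to 15510 CPM, P4 lying below the others. The higher members were Sprr2a2 and Sprr2a3, near-identical small proline-rich genes that may share reads, and the lower one was Calml3. The calls of Sprr2a2 and Calml3 were lost without C148-M3, that of Sprr2a2 also without C149-M3 and against the male lines, and none of the 3 passed with the line as a random effect. Spink5, a protease inhibitor of the epidermis on the kallikrein list, stood at 1.64, 11.4 and 1.96 CPM against 22.97 to 604 CPM, and its call was lost likewise.

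Growth factor genes were higher in a few places. Fgf10, a mesenchymal growth factor, stood at 35.7, 5.69 and 2.12 CPM against at most 1.59 CPM (log2 fold change 6.03 ± 0.88, SE, adjusted p = 0.000155, edgeR). Areg, an EGF receptor ligand, stood at 340, 59.4 and 148.3 CPM against 1.6 to 62.5 CPM (log2 fold change 3.10 ± 0.65, SE, adjusted p = 0.00338, edgeR), and C149-M3 overlapped the others. Tgfb1 stood at 247, 147 and 185 CPM against 34.7 to 96.1 CPM without overlap (log2 fold change 1.69 ± 0.26, SE, adjusted p = 0.000277, edgeR). Dusp6, Etv4, Spry4 and Errfi1 rose by 1.09 to 1.81 on the log2 scale. Their calls and that of Areg were lost without C148-M3. Fgfr3, the receptor often altered in luminal bladder cancer, had a log2 fold change of -2.99 ± 0.76 (SE, adjusted p = 0.0119, edgeR), lost without C148-M3, without P4 and against the male lines.

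Of 29 tested interleukins and cytokines 5 were higher and 5 lower, with a median log2 fold change of -0.32. Il11 was even among the 3 tumors, at 4.22, 3.06 and 3.17 CPM against at most 0.719 CPM (log2 fold change 3.18 ± 0.41, SE, adjusted p = 4.39e-05, edgeR). Tslp, an epithelial cytokine of type 2 inflammation, stood at 25.8, 1.27 and 4.55 CPM against at most 1.12 CPM, and its call was lost without C148-M3. Il1a, Tnfsf10, Csf3, Tnf and Il1rn fell by 1.42 to 3.67 on the log2 scale, and all 5 calls were lost without C148-M3, without C149-M3 and against the male lines, except that Il1a held against the male lines. With the line as a random effect Il11 alone of the list passed.

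Of 43 tested Wnt pathway genes 6 were higher and 3 lower, beside 5.97% and 4.09% of all genes. Their median log2 fold change was -0.17. Notum, a secreted Wnt inhibitor, stood at 10.1, 5.51 and 8.15 CPM against at most 1.62 CPM (log2 fold change 3.76 ± 0.73, SE, adjusted p = 0.00196, edgeR), and the receptor Fzd5 at 76.5, 58.4 and 74.6 CPM against 17.3 to 43.8 CPM (log2 fold change 1.46 ± 0.22, SE, adjusted p = 0.000208, edgeR). Lgr4, a receptor for R-spondins, stood at 17.6, 39.0 and 21.3 CPM against 48.9 to 158 CPM (log2 fold change -2.12 ± 0.37, SE, adjusted p = 0.000793, edgeR). None of the 3 overlapped between the groups. Wnt3a had no count in the 3 tumors and up to 8.61 CPM elsewhere, at least 6.83-fold lower, and its call was lost when any of the 3 was left out. Without C148-M3 3 genes of the list were higher and 1 lower, and with the line as a random effect 2 were higher (Notum and Fzd5) and none lower.

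The TGF-beta and BMP list had 5 of 44 tested genes higher and 3 lower, beside 5.97% and 4.09% of all genes. Its median log2 fold change was 0.18. Beside Tgfb1, Bmp3 rose, at 93.8, 55.7 and 20.1 CPM against 0.985 to 16.9 CPM (log2 fold change 3.56 ± 0.53, SE, adjusted p = 0.000179, edgeR). Id4 and Id2, targets of BMP signaling, were among the lower genes. Grem1, a BMP antagonist, stood at 150 CPM in C148-M3 and at 1.95 and 6.82 CPM in the other 2, inside the range of the 15, and its direction turned without C148-M3. Without C148-M3 3 genes of the list were higher and 1 lower, and Tgfb1 and Bmp3 also passed with the line as a random effect.

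Of 34 tested genes of aldehyde dehydrogenases and retinoid handling 3 were higher and 2 lower, with a median log2 fold change of -0.66. Rxrg, a retinoid X receptor, stood at 2.18, 1.78 and 3.65 CPM against at most 0.0835 CPM (log2 fold change 7.06 ± 0.62, SE, adjusted p = 7.39e-07, edgeR). Aldh7a1, an aldehyde dehydrogenase of lysine breakdown, stood at 58.3, 36.2 and 57.9 CPM against 11.99 to 25.6 CPM (log2 fold change 1.59 ± 0.22, SE, adjusted p = 9.38e-05, edgeR). The groups did not overlap for either, and both passed with the line as a random effect. Outside the subtype Rxrg ran from 4.26 to 5.67 CPM in BURP-16SR and from 0.0527 to 0.862 CPM in BURP-19NE. Cyp26a1, which degrades retinoic acid, stood at 10.8, 1.7 and 0.582 CPM against at most 0.571 CPM, and its call was lost without C148-M3. DESeq2 called 13 genes of the list lower, where it called 1300 of all 20523 genes lower.

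Of 26 tested luminal and urothelial genes 3 were higher and 2 lower, with a median log2 fold change of 0.13, beside 5.97% higher and 4.09% lower over all genes. With the line as a random effect 1 was higher (Foxa2) and none lower. Aqp3, a water and glycerol channel, stood at 1406, 917 and 266 CPM against 34.9 to 249 CPM (log2 fold change 2.76 ± 0.42, SE, adjusted p = 0.000241, edgeR). Krt18, a simple epithelial keratin, stood at 506, 148.3 and 209 CPM against 2.98 to 158 CPM, and Ehf, an epithelial ETS factor, at 40.6, 268 and 75.2 CPM against 223 to 834 CPM, and both calls were lost without C148-M3. Foxa2 and Fgfr3 are the other called members. Of 19 tested genes of the epithelial-mesenchymal transition, Zeb1 and Twist1 were higher and Snai2 lower, and all 3 calls were lost without C148-M3 and with the line as a random effect.

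Replication-dependent histones showed a count that rested on single tumors. Of 59 tested genes 20 were lower and none was higher, with a median log2 fold change of -0.87, but none was lower without C148-M3, 3 without C149-M3, 35 without P4, 1 against the male lines and none with the line as a random effect. Their sum was 1366, 1668 and 2843 CPM in C148-M3, C149-M3 and P4 against 2434 to 5239 CPM, P4 being inside that range. Of 30 proliferation genes 2 were lower (Bub1 and Cenpf), beside 4.09% of all genes, with a median log2 fold change of -0.53. Without P4 10 were lower, beside 4.84% of all genes.

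The 3 tumors of the line were unequal. C148-M3 was the highest of the 3 for 799 of the 1226 higher genes and P4 the lowest for 769, and for the 839 lower genes C148-M3 was the lowest for 564 and P4 the highest for 479. Over 16418 genes the log2 CPM of C148-M3 and C149-M3 correlated with r = 0.921, of C148-M3 and P4 with r = 0.892 and of C149-M3 and P4 with r = 0.884, a description across genes. P4 also held the most fibroblast, macrophage and B cell RNA, and its part in these differences was not tested.

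The genes called were spread unevenly over chromosomes. Chromosomes 7 and X had 10.5% of their tested genes called higher, chromosome 6 9.96%, 14 8.97% and 12 8.54%, against 5.97% over all, and chromosome 13 had 8.11% and 16 7.29% called lower against 4.09%. Without C148-M3 chromosome 13 had 0.884% and chromosome 16 1.68% called lower against 1.04% over all. The excess of calls on chromosome 13 thus rested on that tumor. The median log2 fold change of chromosome 13 was -0.4 with C148-M3 and -0.31 without it, against -0.09 over all genes in both fits. Without that tumor chromosome X had 6.2% and chromosome 6 4.37% called higher against 2.28%. In each tumor the median log2 level of the genes of a chromosome, relative to the mean of the other Ba/Sq tumors and to all genes of that tumor, was taken for genes with a mean of at least 5 CPM. On chromosome 6, over 600 genes, it was 0.30 in C148-M3, 0.36 in C149-M3 and 0.33 in P4 and -0.15 to 0.17 in the other 15. On chromosome 2, over 903 genes, it was -0.31, -0.21 and -0.27 against -0.19 to 0.26. These were the only chromosomes on which all 3 tumors lay outside the range of the other 15, and DNA copy number was not measured here.

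**Figure D5:**
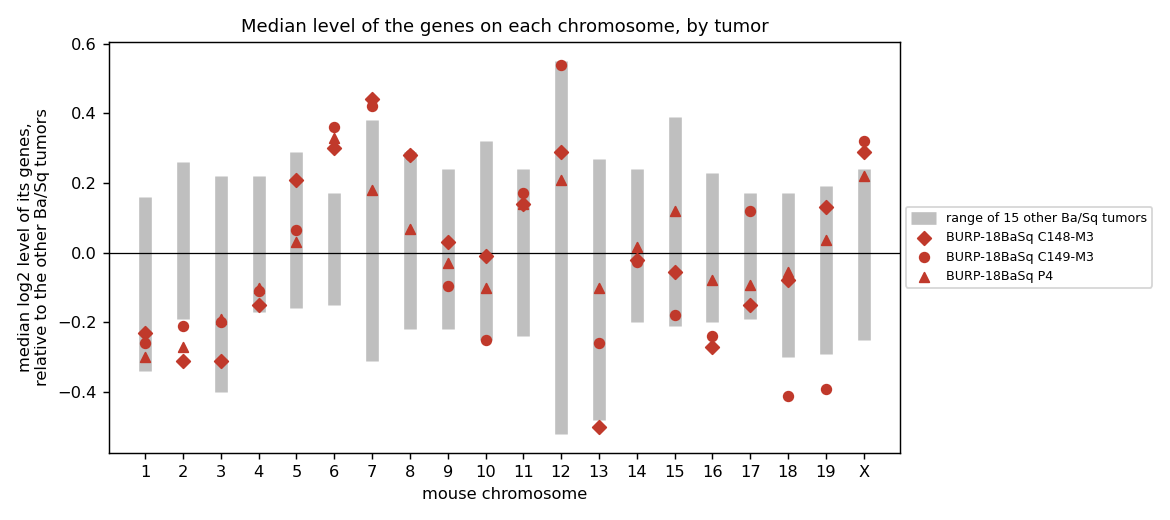
Median log2 level of the genes on each chromosome in the 3 BURP-18BaSq tumors (red symbols), relative to the mean of the other 15 Ba/Sq tumors and to all genes of the tumor, with the range of the 15 as gray bars. On chromosome 6 the 3 tumors lie at 0.30 to 0.36, above a range of -0.15 to 0.17, and on chromosome 2 at -0.31 to -0.21, below a range of -0.19 to 0.26.

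Against the male lines alone, chromosome X had 9.79% of its tested genes called higher, where 4.73% of all genes were, and chromosome 6 had 6.88% and chromosome 7 6.3%. Xist, the RNA of the inactive X chromosome, stood at 0.273, 0.764 and 0.37 CPM in the 3 tumors, at 15.8 to 19.19 CPM in BURP-17BaSq and at 176 to 556 CPM in BURP-12BaSq, both of them described as male lines. The sex of BURP-12BaSq, which had RNA from both Xist and the Y chromosome, was taken as described and not settled here, and this line is part of the comparison with the male lines. The female lines ran from 187 to 3323 CPM. The summed level of 4 tested Y-linked genes was 4.63, 1.53 and 22.2 CPM in C148-M3, C149-M3 and P4, 3.8 to 47.05 CPM in BURP-17BaSq and 116 to 182 CPM in BURP-12BaSq. The 3 tumors thus had low RNA from both Xist and the Y chromosome.

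Runs of neighboring genes called in the same direction held coding, noncoding and nested genes. On chromosome 1 from 25067476 to 25829707 (GRCm38) 9 genes were called higher, of which 8 noncoding genes lie inside Adgrb3, an adhesion receptor gene, on its strand. Adgrb3 stood at 167, 41.9 and 7.67 CPM against 0 to 15.3 CPM, P4 being inside the range of the others. On chromosome 6 from 143010920 to 144781977 7 genes around Sox5 were higher, 4 of them without overlap. The longest lower run held 8 noncoding genes on chromosome 16 from 77419251 to 77687409, with log2 fold changes of -5.16 to -3.79, and 6 of them did not overlap between the groups. Reads of nested genes on 1 strand cannot be told apart from unspliced RNA of the host gene.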

How the data were processed

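Tumors were grouped by the line number in the labels, and the sex and subtype of each line came from the study's methods. Ribosomal RNA was depleted before sequencing, and the authors aligned reads to GRCm38 with GENCODE annotation. Per the submitters' processing notes CASAVA 1.8.2, STAR 2.6.0a and RSEM 1.3.1 were used. The deposited values were estimated counts per gene from RSEM, not normalized, for 53465 genes. Of these values 12.451% were not whole, and they were rounded. No column was left unmapped (0 columns). Names and positions came from GENCODE M21 on GRCm38, in which 99.804% of the identifiers were found.

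Total counts were 9295708 to 25370320. R 4.3.3, edgeR 4.0.16, limma 3.58.1 and DESeq2 1.42.0 were used. The 18 Ba/Sq tumors were fitted with TMM scaling, filterByExpr and edgeR's glmQLFit and glmQLFTest in 2 groups. Calls needed a Benjamini-Hochberg adjusted p below 0.05 together with a change of more than 2-fold (1 on the log2 scale). Groups do not overlap where all 3 tumors lie outside the range of the 15.

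Named were the 15 coding genes per direction with the largest change among called genes that did not overlap and reached a mean of 5 CPM, the 5 largest of any type, called members of the 55 gene lists, the stained markers, and the longest runs of at least 4 neighboring called genes. Promoter motifs were searched in the RefSeq table of GRCm38.p6. The members and lists were chosen with earlier results of these data known. Counts for this comparison over 20523 genes were simulated with 200 genes changed, at a dispersion of 0.1 and without differences between lines. On these counts edgeR found 40% of 2-fold and 100% of 4-fold changes, with 5.41% of its calls false. DESeq2 found 49% and 99% with 15.9% false, and limma-voom 38% and 100% with 9.21% false. In the real data limma-voom put the correlation among tumors of a line at 0.422. The simulated rates leave out this relatedness and are not error rates of the calls reported here.

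Alternatives were other size factors, DESeq2, filters, fits with a coefficient for each line, the line as a random effect in limma-voom, counts summed per line, the male lines alone, the label style as a covariate, the most abundant genes left out, and each tumor and line left out. C102-M1, which resembled BURP-21BaSq, and C102-M30, rich in ribosomal RNA, were kept and, as an alternative, left out. Some called members of the lists are not reported here.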

Additional observations from a re-analysis of the deposited data

How the results depend on the processing

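Tumors of a line are related, BURP-18BaSq is 1 line, and host content varied, so the counts depend on which unit is tested and on C148-M3. Of 204 called genes followed over 36 settings, 9 kept direction and call in all, and 4 turned direction in at least 1. All settings were chosen with earlier results known. The tumor P4 alone and the fit without C102-M1 and C102-M30 were added after seeing the files. The causes of the shifts below were not tested, except that summing counts per line leaves fewer samples and stricter filters fewer genes. No paired analysis was possible because replicate numbers do not link tumors of different lines.

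Of the totals, 2065 genes passed, 1226 higher and 839 lower. DESeq2 gave 1300 lower genes, the filter of at least 10 counts in every tumor 958 in all (559 higher, 399 lower), and the male lines alone 514 lower. A coefficient for each Ba/Sq line gave 3182 (1998 higher), and a coefficient for each line over 24 tumors 3413 (2183 higher). With the line as a random effect in limma-voom 345 genes passed (317 higher, 28 lower), with counts summed per line 26 (22 higher, 4 lower), and with P4 as the sole BURP-18BaSq tumor 207 (183 higher, 24 lower), which assumes that it varies like the other tumors. The share of higher genes was 59.4% in the fit reported, 50.4% with DESeq2, 91.9% with the random effect, 84.6% with summed counts and 88.4% with P4 alone. Leaving out a tumor or a line gave 703 to 2355 genes in all, 483 to 1374 higher and 220 to 1027 lower, the lowest without C148-M3.

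Directions turned for genes resting on 1 tumor. With tumors or lines left out, the Myh4 log2 fold change ranged from -5.965 (without P4) to 4.226, the Grem1 log2 fold change from -0.2654 (without C148-M3) to 3.875, and the Retnlg log2 fold change from -0.2144 (without P4) to 2.858. Sprr2a2 was at -0.5985 with P4 alone. Of the stained markers, none of them called, the Vim log2 fold change ranged from -0.5543 to 0.8838 and was at -0.2687 against the male lines, the Trp63 log2 fold change ranged from -0.1958 to 0.3496 and was at -0.5003 with P4 alone, and the Krt5 log2 fold change ranged from -0.2977 to 0.0763, with 0.01181 under the stricter filter and 0.09865 against the male lines.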

Other observations

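Genes of peptidylarginine deiminases, enzymes that convert arginine to citrulline in hair and epidermis, were high in BURP-18BaSq. Padi3 stood at 219, 29.0 and 111 CPM in C148-M3, C149-M3 and P4 against 0.0364 to 12.8 CPM in the other Ba/Sq tumors (log2 fold change 5.04 ± 0.92, SE, adjusted p = 0.00128, edgeR), and Padi4 at 61.7, 84.5 and 46.4 CPM against 1.53 to 40.8 CPM (log2 fold change 2.19 ± 0.61, SE, adjusted p = 0.02, edgeR). The groups did not overlap for either gene, and the call of Padi4 was lost without C148-M3, without C149-M3 and with the line as a random effect. Padi4 stands on the list of neutrophil markers, whose sum was 121, 367 and 115.2 CPM in the 3 tumors and 122 to 1364 CPM in the others. Of the 10 tested neutrophil markers 2 were higher, Padi4 and Retnlg, and 1 lower. Retnlg was highest in P4, at 3.86 CPM, and its direction turned without P4. Ltf, the lower one, had a log2 fold change of -3.20, lost without C148-M3.

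Enzymes of detoxification differed in single genes. Akr1b8, an aldo-keto reductase, stood at 63.8, 70.7 and 55.7 CPM against 11.6 to 38.7 CPM (log2 fold change 1.61 ± 0.25, SE, adjusted p = 0.000272, edgeR), and Ephx1, microsomal epoxide hydrolase, at 0.545, 1.02 and 3.91 CPM against 6.31 to 37.6 CPM (log2 fold change -3.16 ± 0.66, SE, adjusted p = 0.00352, edgeR). Both genes had groups that did not overlap. Of 46 tested NRF2 targets and glutathione genes 3 were higher and 1 lower, beside 5.97% higher and 4.09% lower over all genes. Their median log2 fold change was -0.40, and none passed with the line as a random effect. Ptgs2, the inducible cyclooxygenase, stood at 573, 162 and 98.8 CPM against 6.46 to 184 CPM, and its call was lost without C148-M3.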
